A study of Canis lupus familiaris with 34 samples.

Results

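The genes described here are the matrix metalloproteinases (MMPs), the ADAM, ADAMTS and ADAMTS-like (ADAMTSL) genes and the tissue inhibitors of metalloproteinases (TIMPs) in osteosarcoma of the dog, a bone cancer. Every symbol of the platform annotation that starts with MMP, TIMP, or ADAM followed by a digit or TS was taken, except MMP9, which left 58 of the 15115 genes with a probe set of their own. They comprised 20 MMPs, 16 ADAMs, 14 ADAMTS genes, 5 ADAMTSL genes and 3 TIMPs, read by 105 probe sets. Transcript levels came from Affymetrix Canine_2 arrays, 1 array per sample, and the 34 arrays came from 31 dogs of several breeds. There were 3 lines from metastases (age labels 2.39 to 6.31), 25 line arrays from primary tumours of 24 dogs (2 to 11.19) and 6 snap-frozen primary tumour tissues (2.67 to 11.91). The labels give no unit for age. Lines were primary tumour cells or cryopreserved cultures per the labels, each from 1 dog, whereas a tissue holds whatever other cells the tumour contained. Dog 22 had 2 line arrays, which were averaged, so that 24 primary lines were compared. No knockout or experimental treatment was part of the design, and the treatment labels (SOC, AMP and PALL, not spelled out) describe how dogs were managed.

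MMPs are secreted or membrane-bound zinc enzymes that cut collagens and other matrix proteins, and most are made as inactive precursors. Collagenases open the collagen triple helix, gelatinases cut the unwound chains, stromelysins cut many matrix proteins, and membrane-type MMPs work at the cell surface. ADAMs release the outer parts of membrane proteins, ADAMTS enzymes process procollagen and cut proteoglycans, and ADAMTSL proteins lack the protease domain. TIMPs bind and block these enzymes, and TIMP2 also helps the membrane-type enzyme MMP14 to activate the gelatinase MMP2. In bone, MMP13 is known as a product of hypertrophic chondrocytes and osteoblasts.

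All levels below are log2 of the deposited GCRMA intensity, and differences are log2 differences. A gene was tested where a probe set was over log2 5 on at least 3 of the 34 arrays, and 7849 genes passed. A difference between primary lines and tissues was called at an adjusted p under 0.05 (limma, adjusted over all 7849 genes) and at least 2-fold. Sample titles carried 1 of 3 prefixes, which may mark a batch. Prefix 1 held 4 primary lines, prefix 2 held 19 primary lines and the 3 metastatic lines, and prefix 3 held 2 primary line arrays and all 6 tissues. Column medians were 8.08 to 8.37 in metastatic lines, 8.06 to 8.51 in primary lines and 8.28 to 8.67 in tissues (linear intensity). The difference between 3′ and 5′ actin probe sets, which rises as RNA degrades, had a median of 0.65 in metastatic lines, 1.33 in primary lines and 2.58 in tissues. Line arrays correlated with a median of 0.882 across tested genes, and primary lines 5 and 9, from different dogs, reached 0.979. Primary line 8 with metastatic line 2, and primary lines 17 with 24, each reached 0.978. The 2 line arrays of dog 22, which were averaged, correlated at 0.919, below these pairs from different dogs. Primary line 4 stood apart, with the endothelial marker PECAM1 at 13.88. Its summed osteoblast markers were 6081 intensity units, against 26077 to 42622 in the other primary lines. In primary lines this sum mostly reflects COL1A1 and COL1A2, with medians of 13.79 and 14.51. Monocyte and macrophage markers were lower in primary lines than in tissues for 12 of 12 tested genes of 14 listed, and endothelial markers for 7 of 8 tested of 11 listed. Of these tested markers, 8 of the 12 macrophage and 2 of the 8 endothelial genes were over log2 5 in no line, so they passed the filter through the tissues and had to differ. The summed macrophage markers ranged over 61.6 to 14363 intensity units in primary lines (up to 197 without line 4) and over 5550 to 26277 in tissues. The sum of line 4 was mostly LAPTM5, at 13.7, so it does not measure a share of macrophages. C1QA, C1QB, C1QC and CD163 were over log2 5 in 0 of 24 lines. The summed endothelial markers ranged over 69.1 to 34315 in primary lines (up to 255 without line 4) and over 1711 to 30200 in tissues. The part of these other cells in the differences between lines and tissues was not tested, and in bulk samples fewer cells of a type and less RNA per cell cannot be told apart.

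Of the 58 genes, 20 passed the filter on low values: 9 of 20 MMPs, 4 of 16 ADAMs, 3 of 14 ADAMTS genes, 1 of 5 ADAMTSL genes and all 3 TIMPs. Of the other 38, 33 were over log2 5 on no array, among them the secreted enzymes MMP7, MMP8, MMP20 and MMP27 and the sperm protein genes ADAM2 and ADAM18. The remaining 5 passed log2 5 on 1 or 2 arrays only. ADAMTS4, an aggrecanase, reached 8.02 on 1 array, ADAMTS18 reached 7.46 on one of 2 arrays, ADAM28 6.24 on one of 2, ADAMTSL3 5.72 on 1 and MMP17 5.09 on 1. Such low values do not show that a transcript was absent, since GCRMA gives no detection call.

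Of the 20 tested members 6 were called between primary lines and tissues, 1 higher and 5 lower in lines. The collagenases MMP1 and MMP13, the stromelysins MMP3 and MMP11 and the membrane-type enzyme MMP16 were lower in primary lines, and ADAM9 was higher. Over all genes tested, 14.6% were called in either direction, 5.57% higher and 9.06% lower. The median difference was -0.68 over the 20 members and -0.05 over all tested genes. Primary lines and tissues did not overlap for MMP13 alone of the members, while 1.54% of all tested genes did not overlap. MMP16 was over log2 5 in 2 primary lines only, so it passed the filter through the tissues where it was high. Its place among the 6 carries that limit. The other called members had at least 3 primary lines over that level.

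**Figure D1:**
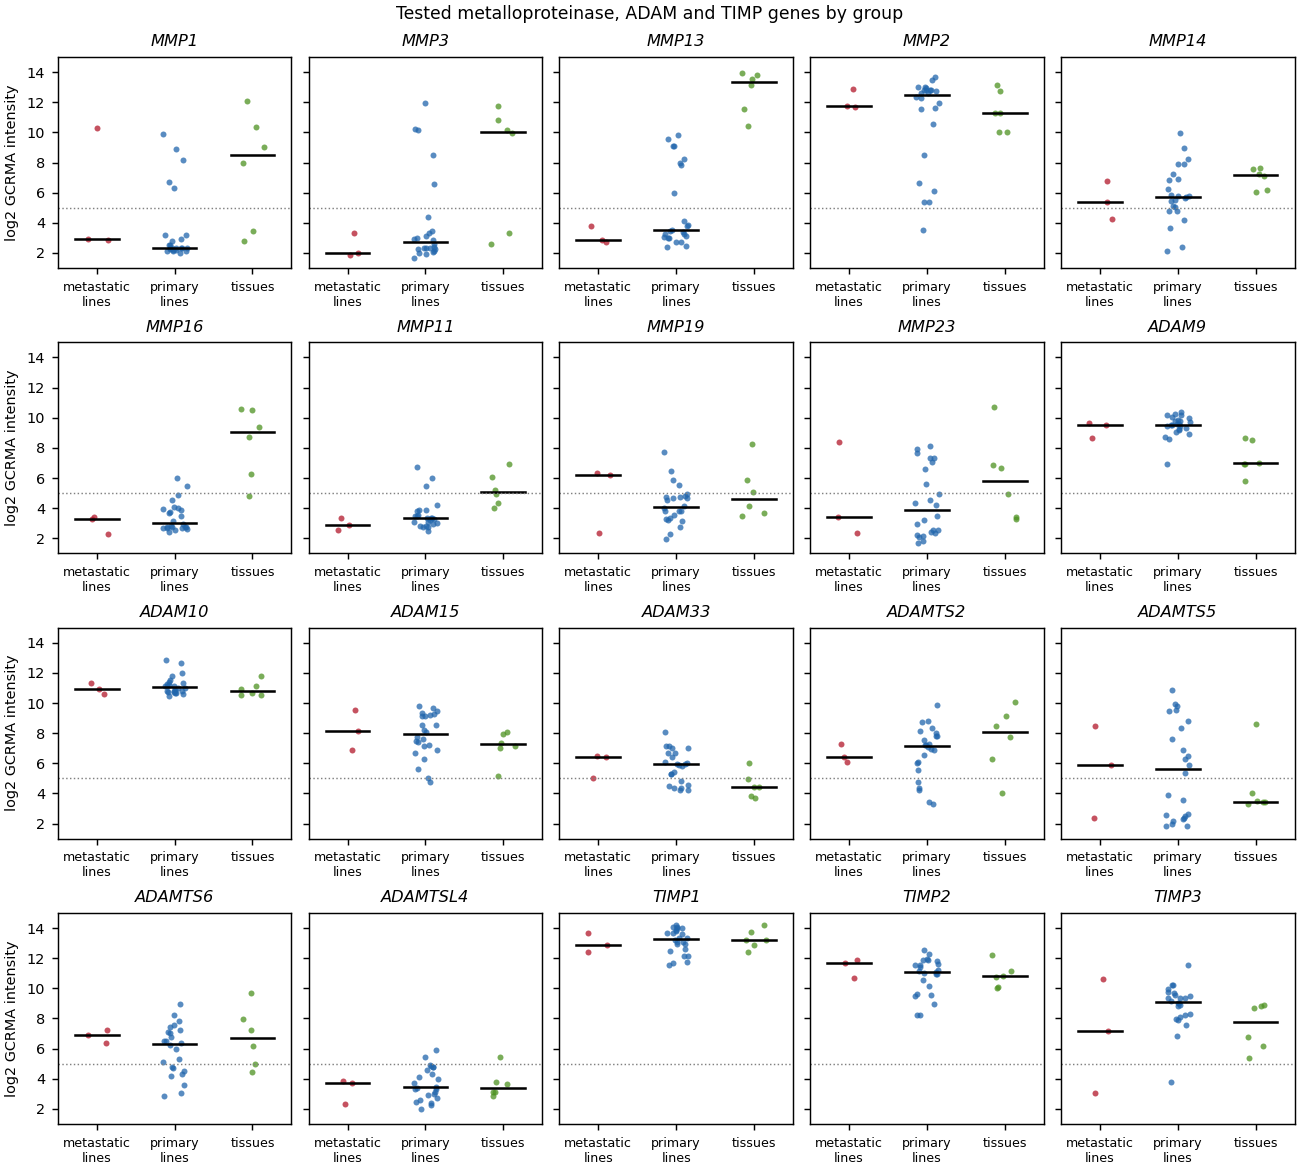
Each point is 1 line or tissue and the y axis is its log2 GCRMA intensity, for the 20 tested genes, with a bar at the group median and a dotted line at the filter level of log2 5. MMP13 points of tissues all lie above those of primary lines, MMP2 points of primary lines fall into a high and a low cluster, and TIMP1 points of all groups overlap.

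MMP13, the collagenase known from bone and cartilage, showed the largest difference of the members. It stood at 3.78, 2.88 and 2.75 in the 3 metastatic lines. Primary lines ranged from 2.39 to 9.80 with a median of 3.51, against 10.40 to 13.96 with a median of 13.37 in tissues. All 6 tissues were thus above every primary line, although 8 of 24 primary lines were over log2 5. The difference was -7.79 (SE 1.05, adjusted p = 1.0e-06), and within prefix 3 it was -4.99 (adjusted p = 0.029). With the prefix as a covariate the same difference had an adjusted p of 0.100. The second MMP13 probe set differed by -7.30. Some markers of bone and cartilage cells were also lower in primary lines. Of the tested markers, 5 of 9 osteoblast, 2 of 3 osteoclast and 2 of 3 cartilage genes were called lower there. Among them were IBSP (-8.38), ALPL (-6.69), PTH1R (-6.21), ACP5 (-9.04) and ACAN (-5.78). IBSP and the cartilage gene COL2A1 were over log2 5 in no line, so they passed the filter through the tissues and had to differ. The summed osteoblast markers were 6081 to 42622 intensity units in primary lines and 47159 to 81575 in tissues. Summed osteoclast markers were 945 to 15525 in primary lines and 7284 to 24723 in tissues, and summed cartilage markers 18.4 to 706 in primary lines and 835 to 4400 in tissues. In primary lines the osteoblast sum mostly reflects COL1A1 and COL1A2 (medians 13.79 and 14.51), and the osteoclast sum mostly CTSK (13.11). These genes were not called, with differences of -0.18, -0.34 and -0.26, so these sums do not measure the share of bone cells. The part of bone and cartilage cells in the MMP13 difference was not tested. The non-overlap depended on the averaging of dog 22, whose line arrays read 11.47 and 7.66.

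MMP1, the interstitial collagenase, and MMP3, stromelysin 1, were high in some primary lines and some tissues and low in the rest. MMP1 was 12.08, 2.81, 9.05, 3.45, 7.97 and 10.39 in tissues 1 to 6, and MMP3 was 10.83, 2.59, 10.16, 3.34, 9.95 and 11.73 in the same tissues. Tissues 2 and 4 were low for both genes. MMP1 in primary lines had a median of 2.35 and a maximum of 9.92, and 5 of 24 lines (4, 6, 7, 20 and that of dog 22) were over log2 5. MMP3 in primary lines had a median of 2.72 and a maximum of 11.98, and again 5 of 24 lines (6, 14, 20, 25 and that of dog 22) were over log2 5. Among the metastatic lines, MMP1 was 10.32 in line 1 and under 3 in lines 2 and 3, while MMP3 was under 3.4 in each. The ranges of primary lines and tissues overlapped for both genes.

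In primary lines against tissues MMP1 differed by -4.03 (SE 1.24, adjusted p = 0.018) and MMP3 by -4.06 (SE 1.37, adjusted p = 0.030). Within prefix 3 the differences were -1.28 (adjusted p = 0.820) for MMP1 and -3.32 (adjusted p = 0.513) for MMP3. Both calls depended on single tissues. The MMP1 call was lost without tissue 1 (adjusted p = 0.084), tissue 3 (0.051) or tissue 6 (0.065), and the MMP3 call without tissue 1 (0.092), 3 (0.085), 5 (0.081) or 6 (0.109). With dog as a replicate block MMP3 differed by -3.55 with an adjusted p of 0.068.

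MMP13, MMP3 and MMP1 lie next to each other in the dog gene table (UU_Cfam_GSD_1.0), with MMP12 between MMP13 and MMP3, and MMP8, MMP27, MMP20 and MMP7 follow on the other side of MMP1. MMP12 was not analysed here, and the probe sets of MMP8, MMP27, MMP20 and MMP7 were over log2 5 on no array. Of the 24 primary lines, 3 had MMP1, MMP3 and MMP13 all over log2 5 (line 6, line 20 and that of dog 22), and 13 had none. The line arrays of dog 22 read 3.99 and 9.47 for MMP1, so its place in every MMP1 count rests on their average. Of the lines over that level, 4 shared MMP3 with MMP13, which is 4 of 5 for MMP3 and 4 of 8 for MMP13. MMP1 and MMP13 shared 3 lines, which is 3 of 5 for MMP1 and 3 of 8 for MMP13. In tissues 4 of 6 had all of them, and 2 had MMP13 without MMP1 or MMP3. MMP1 and MMP3 fell into separate clusters across primary lines (gaps between 3.22 and 6.29 and between 4.39 and 6.56), so no correlation was computed between them. Below these gaps MMP1 and MMP3 were under log2 5 in all 19 lines each, so their relations to MMP13 there were not read.

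MMP16, a membrane-type MMP, was under 3.5 in all 3 metastatic lines. It ranged from 2.39 to 5.98 with a median of 3.03 in primary lines, against 8.72, 9.41, 10.61, 6.29, 4.82 and 10.52 in tissues 1 to 6. All but tissue 5 were above the highest primary line. The difference was -4.93 (SE 0.57, adjusted p = 6.0e-08). MMP16 was over log2 5 in 2 primary lines, 0 metastatic lines and 5 tissues. It passed the filter through the tissues, so its difference and adjusted p are no separate evidence. MMP16 was the one member called with the prefix as a covariate (-4.03, adjusted p = 0.014), a fit that called 6.28% of all genes. Within prefix 3 alone the same size had an adjusted p of 0.208.

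MMP14, the membrane-type enzyme that activates the MMP2 precursor, was 4.23, 6.78 and 5.40 in metastatic lines 1 to 3. In primary lines it ranged from 2.12 to 9.94 with a median of 5.73, against 6.07 to 7.63 with a median of 7.20 in tissues. The tissues lay inside the wide range of the lines, and 5 lines were above every tissue. The difference was -1.05 (95% interval -2.58 to 0.47, adjusted p = 0.331). Within prefix 3, whose line arrays read 4.76 and 3.67, it was -2.76 (adjusted p = 0.035) and passed the threshold.

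MMP2, gelatinase A, was 11.67, 12.89 and 11.76 in metastatic lines. In tissues it ranged from 9.999 to 13.16 with a median of 11.29. Primary lines fell into separate clusters: 18 lines read 10.58 to 13.65, and 6 lines read 3.54 to 8.53. Clusters counted as separate at a gap over 2 with at least 3 lines on each side. This gap was 2.05, just over that cut, and tissues 3 and 6 (9.999 and 10.05) lay inside it. The low lines were lines 4 (3.54), 6 (6.64), 12 (6.11), 23 (5.41) and 25 (8.53) and the line of dog 22 (5.38). Line 25 stood between the other low lines and the high ones. A second MMP2 probe set spanned a like range, 3.03 to 12.63, over the primary line arrays. Over all lines the difference from tissues was -0.54 (95% interval -2.998 to 1.93, adjusted p = 0.790). Both line arrays of prefix 3 belonged to low lines, and within that prefix the difference was -5.83 (adjusted p = 0.013). Within prefix 3, 3 of 20 members were called, namely MMP2, MMP13 and MMP14, against 3.2% of all tested genes.

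**Figure D2:**
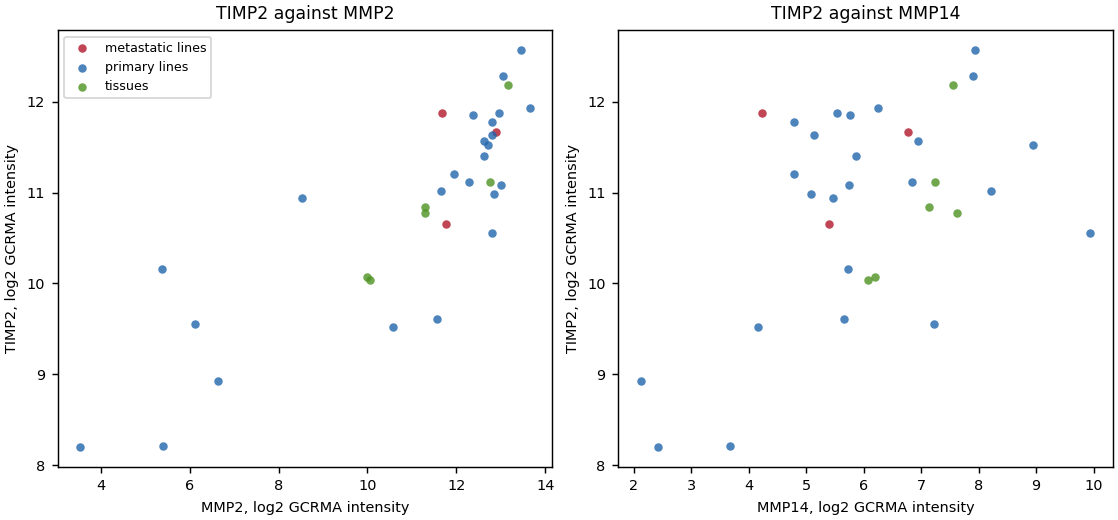
TIMP2 against MMP2 (left) and TIMP2 against MMP14 (right), each axis in log2 GCRMA intensity, with 1 point per metastatic line, primary line or tissue. The 6 primary lines with MMP2 at 8.53 or lower stand apart at the left, and in the other 18 TIMP2 is higher where MMP2 is higher.

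TIMP2 followed MMP2 among the 18 lines above the gap. There Pearson's r was 0.79 and Spearman's rho 0.63 (permutation p = 0.00017 and 0.0061, adjusted p = 0.0012 and 0.043 over the 7 relations computed). Without the 2 lines farthest from the median of MMP2 r was 0.53, and within prefix 2 it was 0.85. Among the 6 low lines r was 0.75 and rho 0.60 (exact permutation p = 0.081 and 0.242), and r was -0.09 without the 2 farthest. TIMP2 also varied with MMP14 over all 24 lines, with an r of 0.56 (permutation p = 0.0040, adjusted p = 0.014) and a rho of 0.45 (permutation p = 0.030, adjusted p = 0.104). This r was 0.60 without the 2 farthest lines, 0.46 without line 4 and 0.54 within prefix 2. Lines 4, 6 and 23 were the lowest for both genes (MMP14 2.43, 2.12 and 3.67, TIMP2 8.20, 8.93 and 8.21). The 2 farthest lines were 2 (MMP14 9.94, TIMP2 10.56) and 6, so that check kept lines 4 and 23. No r was computed without all of lines 4, 6 and 23, so the relation in the other lines was not tested. MMP2 and MMP14 gave an r of 0.31 and a rho of 0.23 above the gap (permutation p = 0.217, adjusted p = 0.304), an r of 0.03 without the 2 farthest lines and of 0.55 within prefix 2. Below the gap they gave an r of 0.36 and a rho of 0.03 (exact permutation p = 0.485, n = 6). Any part of culture or array processing in these relations was not tested, so they describe these arrays only.

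MMP11, stromelysin 3, was 2.56, 3.33 and 2.88 in metastatic lines. It ranged from 2.48 to 6.74 with a median of 3.34 in primary lines, against 4.03 to 6.95 with a median of 5.07 in tissues. All 6 tissues were above the median line, and 1 tissue was above the highest line. The difference was -1.63 (SE 0.46, adjusted p = 0.0093), and within prefix 3 it was -1.86 (adjusted p = 0.200). Without tissue 1, the highest, the adjusted p was 0.052. MMP19 and MMP23 spread widely in every group and were not called. MMP19 differed by -0.86 (adjusted p = 0.363), by -0.23 without tissue 2, its highest tissue, and by -1.18 without tissue 6. MMP23, an MMP without the usual hemopexin domain, ranged from 1.69 to 8.15 in primary lines, against 3.29 to 10.68 in tissues, and differed by -1.59 (adjusted p = 0.297). Without tissue 2, also its highest, it differed by -0.65, without tissue 5 by -2.12, and within prefix 3 by -3.48 (adjusted p = 0.290).

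ADAM9, a membrane sheddase, was the one member called higher in primary lines. It was 9.49, 9.64 and 8.63 in metastatic lines and ranged from 6.96 to 10.36 with a median of 9.54 in primary lines. Tissues read 8.49, 8.63, 7.00, 6.96, 5.80 and 6.90. Of the 24 primary lines, 22 were above the highest tissue. The exceptions were the line of dog 22 and line 23, which are the lines with prefix 3 arrays. The line of dog 22 was low on both its arrays, at 7.16 with prefix 2 and 6.77 with prefix 3. The difference between primary lines and tissues was 2.17 (SE 0.35, adjusted p = 1.8e-05), about 4.50-fold. Within prefix 3 it was 0.39 (adjusted p = 0.820), and with the prefix as a covariate the adjusted p was 0.747. A second ADAM9 probe set over log2 5 on 31 arrays differed by 2.42.

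ADAM10, the sheddase of Notch and many other surface proteins, varied least of the 20 tested members on the probe set used, with an SD of 0.61 across primary lines. It was 10.61 to 11.31 in metastatic lines, 10.48 to 12.86 in primary lines and 10.52 to 11.76 in tissues. Primary lines differed from tissues by 0.27 (95% interval -0.27 to 0.80, adjusted p = 0.501). A second ADAM10 probe set, over log2 5 on 33 arrays, spanned 5.10 to 9.91 over the primary line arrays and 4.62 to 7.63 in tissues. With that probe set the difference was 1.22 (adjusted p = 0.097). ADAM15, a disintegrin-type ADAM, differed by 0.72 (adjusted p = 0.422), and by -1.62 within prefix 3 (adjusted p = 0.248), where the direction turned. ADAM33 ranged from 4.22 to 8.09 in primary lines, against 3.73 to 6.02 in tissues, and its difference of 1.22 (SE 0.47, adjusted p = 0.055) missed the threshold. It passed with quantile normalization (1.36, adjusted p = 0.038), with array weights (1.61, 0.015), without line 4 (1.29, 0.037) or without tissue 2 (1.51, 0.026). Within prefix 3 it was 1.17 (adjusted p = 0.365). ADAM17 was not analysed here.

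ADAMTS5, an aggrecanase of cartilage, had the widest spread of the tested members across primary lines, with an SD of 3.15. It was 8.45, 5.89 and 2.34 in the metastatic lines and 1.83 to 10.86 with a median of 5.61 in primary lines. Tissues had a median of 3.46, and only tissue 1, at 8.64, was over log2 5. The difference of 1.15 (SE 1.31, adjusted p = 0.567) missed the threshold, and within prefix 3 the direction turned (-2.46, adjusted p = 0.322). ADAMTS2, the enzyme that removes the amino-terminal propeptide of fibrillar procollagens, ranged from 3.30 to 9.84 with a median of 7.14 in primary lines, against 4.03 to 10.06 with a median of 8.10 in tissues. ADAMTS6 ranged from 2.86 to 8.94 with a median of 6.32 in primary lines, against 4.46 to 9.67 with a median of 6.69 in tissues. ADAMTS2 differed by -0.87 (adjusted p = 0.449) and by -3.50 within prefix 3 (adjusted p = 0.209). With single tissues left out it ran from -0.38 (without tissue 2) to -1.58 (without tissue 6). ADAMTS6 differed by -0.82 (adjusted p = 0.444) and by -1.23 within prefix 3 (adjusted p = 0.668). Its range with single tissues left out was -0.24 (without tissue 2) to -1.28 (without tissue 6). ADAMTSL4, a fibrillin-binding protein without protease activity, was over log2 5 in 2 lines and 1 tissue and differed by 0.01 (SE 0.46).

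TIMP1 and TIMP2 were over log2 5 in every line and tissue, and none of the 3 inhibitors was called. TIMP1 was 12.43, 13.66 and 12.85 in metastatic lines, 11.57 to 14.19 with a median of 13.26 in primary lines and 12.41 to 14.20 with a median of 13.21 in tissues. Its difference between primary lines and tissues was -0.15 (95% interval -0.86 to 0.56, adjusted p = 0.803). TIMP2 was 11.88, 11.67 and 10.66 in metastatic lines, 8.20 to 12.57 with a median of 11.10 in primary lines and 10.04 to 12.19 with a median of 10.81 in tissues. It differed by -0.03 (95% interval -1.05 to 0.99, adjusted p = 0.975), and by -1.91 within prefix 3 (adjusted p = 0.142). TIMP3, the inhibitor that stays bound to the matrix and also blocks ADAMs and ADAMTS enzymes, was 3.81 to 11.53 with a median of 9.11 in primary lines, against 5.37 to 8.88 with a median of 7.76 in tissues. Of the 24 lines, 14 were above the highest tissue, and line 7 was the lowest of all lines at 3.81. The difference was 1.38 (95% interval -0.16 to 2.93, adjusted p = 0.194). The other 3 TIMP3 probe sets differed by 1.17 to 1.46.

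**Figure D3:**
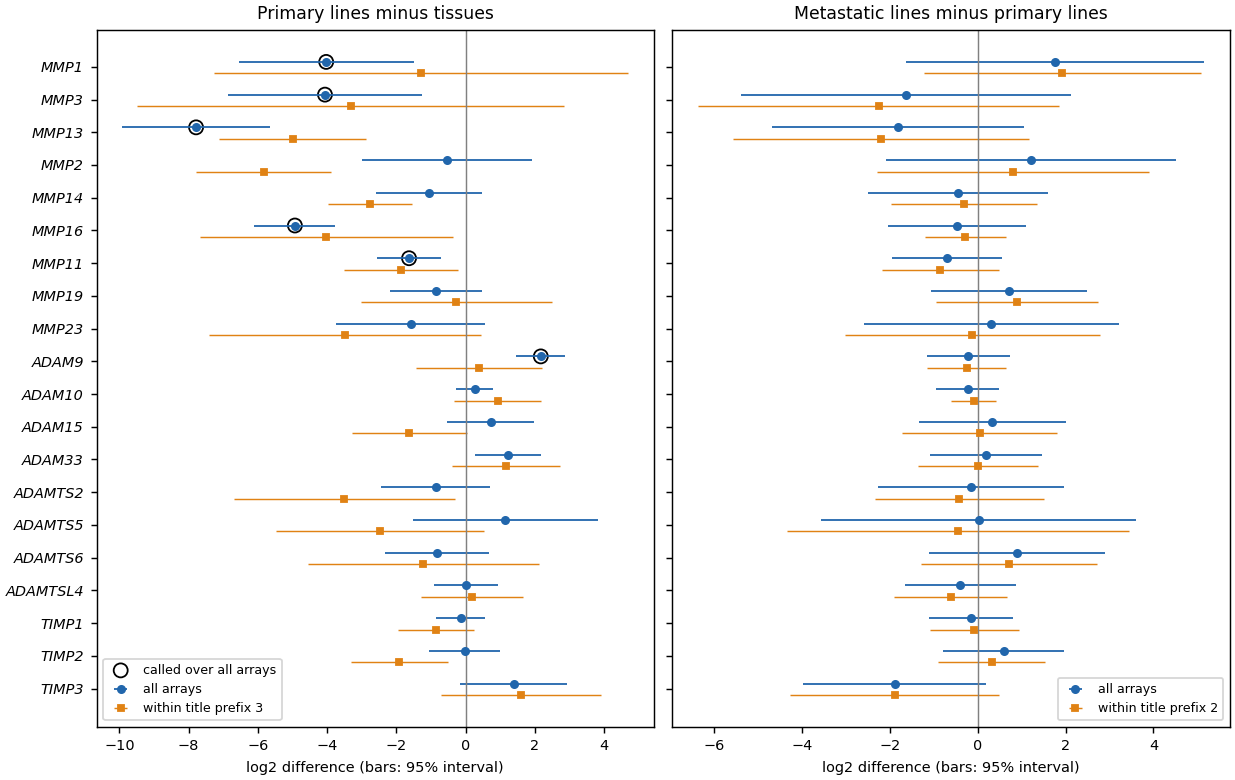
Log2 differences of the 20 tested genes with 95% intervals, for primary lines minus tissues (left) and metastatic lines minus primary lines (right), over all arrays (circles) and within 1 title prefix (squares). Ringed circles mark the 6 called genes, MMP13 at -7.79 lies farthest from 0, and the ADAM9 difference of 2.17 is 0.39 within prefix 3.

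Dogs 22 and 23 each gave a line and a tissue. The line of dog 23 is primary line 20, whereas primary line 23 came from another dog. MMP13 was lower in the line in both dogs, by -2.34 and -6.16 for the line arrays of dog 22 and by -4.07 in dog 23. MMP16 was likewise lower, by -2.37 and -2.07 in dog 22 and by -8.13 in dog 23. ADAM9 was higher in the line, by 1.36 and 0.97 in dog 22 and by 3.29 in dog 23. These members went the same way on all 3 pairs of arrays. MMP1 differed by -3.99 and 1.50 in dog 22 and by -4.10 in dog 23, and MMP3 by 2.92 and -2.51 in dog 22 and by -1.50 in dog 23. MMP11 differed by -1.86 and -1.88 in dog 22 and by 1.80 in dog 23. The dogs also went opposite ways for MMP2, at -6.30 and -5.51 in dog 22 and 3.60 in dog 23, and for TIMP3, at -0.81 and -0.39 in dog 22 and 4.73 in dog 23. For MMP1 and MMP3 the line arrays of dog 22 themselves disagreed, with MMP1 at 3.99 and 9.47 and MMP3 at 12.87 and 7.44.

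**Figure D4:**
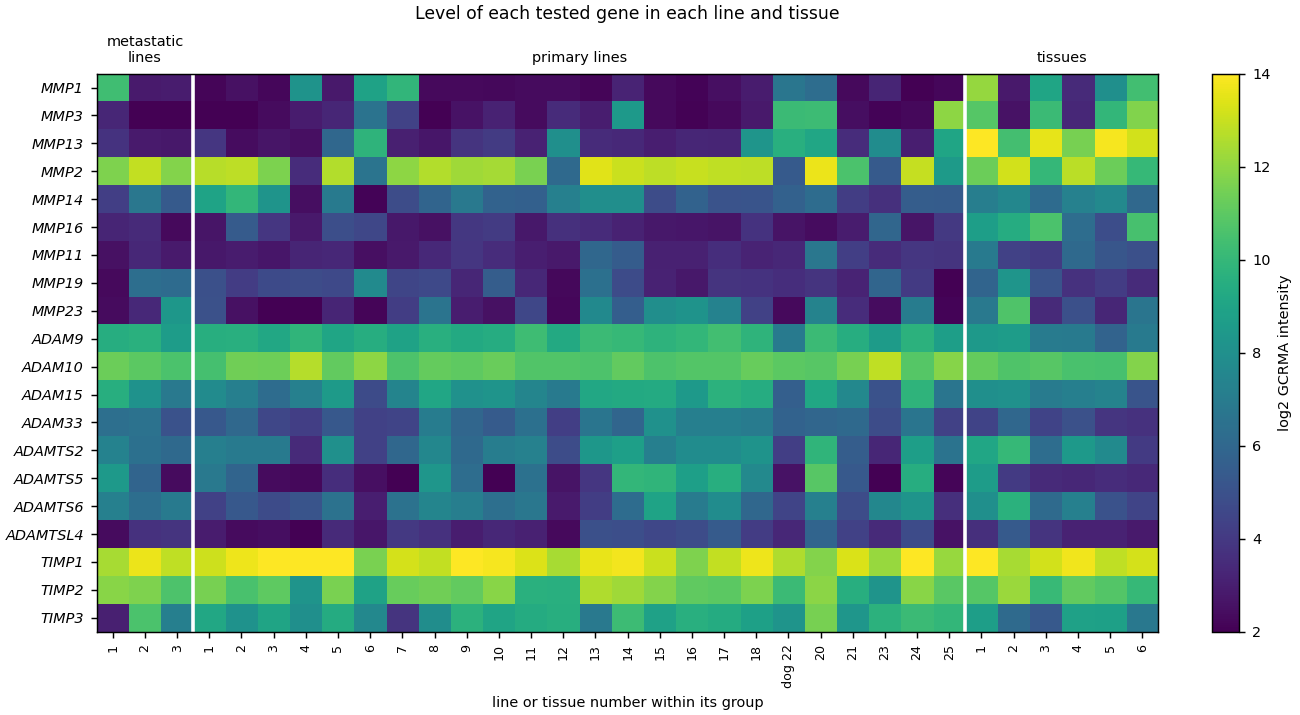
Colour gives the log2 GCRMA intensity of each of the 20 tested genes (rows) in each metastatic line, primary line and tissue (columns, numbered within its group), and dog 22 is the mean of its line arrays. MMP13 is bright in every tissue, MMP1 and MMP3 are dark in tissues 2 and 4, and the 3 TIMPs are bright in most columns.

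Other genes of the pathway were read from lists of regulators and partners, shed ligands and matrix substrates. Of 19 regulators and partners 11 were tested, with 2 higher and 2 lower in primary lines (median difference 0.06). RECK, a membrane-anchored inhibitor of MMPs, was higher by 2.21 (adjusted p = 0.012), and basigin (BSG), a surface protein known to induce MMPs, was higher by 2.53 (adjusted p = 0.00082). PCSK5, a proprotein convertase, was lower (-2.33, adjusted p = 0.022), as was TSPAN15, a tetraspanin partner of ADAM10 (-2.25, adjusted p = 0.0065). Within prefix 3 these differences were 0.78 for RECK, 1.48 for BSG, -3.94 for PCSK5 and -2.37 for TSPAN15. Of them the PCSK5 one passed the threshold (adjusted p = 0.049). RECK was over log2 5 in 16 primary lines, 1 metastatic line and 0 tissues, so it passed the filter through the lines. TSPAN15 was over that level in 1 primary line and 2 tissues only, with medians of 2.13 in primary lines and 4.40 in tissues. Of 7 ligands shed by ADAMs 4 were tested, and 0 were called. Of 13 matrix substrates 12 were tested, with 1 higher and 2 lower (median difference -0.18). Thrombospondin 1 (THBS1) was higher by 1.24 (adjusted p = 0.0074). The cartilage genes ACAN, which encodes aggrecan, and COL2A1 were lower (-5.78, adjusted p = 1.6e-08, and -2.82, adjusted p = 3.9e-07). COL2A1 was over log2 5 in 0 lines and 3 tissues, so it passed the filter through the tissues. Within prefix 3 the differences were 1.13 for THBS1 (adjusted p = 0.356), -6.85 for ACAN (0.0026) and -3.17 for COL2A1 (0.137).

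No member was called between metastatic and primary lines. By limma 0 of the 20 were called and 0 had an unadjusted p under 0.05, against 0.0127% called and 6.8% unadjusted over all genes tested. The median difference was -0.15 over the members and 0.05 over all genes. TIMP3 had the largest difference, with 3.07, 10.59 and 7.18 in the metastatic lines, 2 of which lay inside the range of the primary lines. It differed by -1.89 (95% interval -3.97 to 0.18, adjusted p = 0.766), and by -1.89 within prefix 2 (adjusted p = 0.693). It was 0.04 without metastatic line 1 and -3.71 without metastatic line 2. MMP13 differed by -1.82 (95% interval -4.69 to 1.05) and MMP1 by 1.77 (95% interval -1.63 to 5.16). The MMP1 value rested on metastatic line 1, and without that line it was -0.72.

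The survival label was compared with the members in the 11 primary lines of dogs labelled SOC, over labels of 4.04 to 64.01 whose unit is not given. Survival was treated as uncensored, since the labels of these 11 lines do not tell whether the dog had died. Of the 20 members 0 were called by limma, as were 0% of all genes tested. At an unadjusted p under 0.05 there were 3 members, against 4.88% of all genes. They were MMP23, with 1.20 per doubling of the survival label, ADAM33 with 0.40 and TIMP1 with -0.27, each at an adjusted p of 0.905. Within prefix 2, which held 9 of these lines, the slopes were 1.05 for MMP23, 0.21 for ADAM33 and -0.25 for TIMP1 (adjusted p = 0.995 each).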

How the data were processed

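GCRMA was the method by which the authors obtained the deposited intensity values, per the submitters' processing notes. Its settings were not given in the sources used here. Because the intensity scale was linear, log2 was taken above a floor of 1, which altered 0 values. Of 43035 probe sets 175 controls were left out, and 29254 carried 1 symbol. A gene was read by its probe set of highest mean. All 58 members matched the gene table by symbol.

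Groups came from the source labels. Lines are from separate dogs per the labels. Both line arrays of dog 22 were averaged, except in fits by title prefix. The 3 groups shared 1 fit in limma 3.58.1 (R 4.3.3), with Benjamini-Hochberg adjustment over 7849 genes. Metastatic lines and survival were called at an adjusted p under 0.05. Correlations used permutation tests of 100000 draws, or exact ones under 8 lines. The number of arrays limits precision.

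Any member could be named, with values for called members, TIMPs, MMP2, MMP14, ADAM10 and the 10 widest spreads, and listed genes were named where called. Members, lists and tests were chosen with earlier results of these data known. The pairing of line and tissue comes from the dog labels. In dog 22 the deviations of line and tissue correlated at 0.157, against -0.175 in dog 23, and the block's estimated correlation was 0.129. The gene fits were also tested on simulated data. Alternatives covered the filter, probe set, normalization, array weights, prefix, dog, closely correlated lines, line 4 and single samples.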

Additional observations from a re-analysis of the deposited data

Results flagged for a closer look

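Each of the 20 tested members was examined for a tissue far from the other 5, by the gap to the nearest tissue divided by the range (Dixon's critical value 0.625 for 6 samples). Chance marks about 1 in 20 groups, and 3 of 20 members were marked. ADAMTS5 was 8.64 in tissue 1, the highest, with the next tissue at 4.03 (0.869 of the range). ADAM15 was 5.14 in tissue 6, the lowest, with the nearest at 7.01 (0.642). ADAMTSL4 was 5.42 in tissue 2, the highest, with the next at 3.80 (0.635). None of these genes was called between primary lines and tissues.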

How the results depend on the processing

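The count of 6 members called between primary lines and tissues was 10 with no filter on low values, where ADAM28 (-2.05), ADAMTS18 (-1.33) and ADAMTS4 (-2.17) were added as lower and ADAMTSL5 (1.38) as higher, while 8.94% of 15115 genes were called. Of the added genes, ADAMTSL5 was over log2 5 on 0 arrays (highest 4.74). ADAM28, ADAMTS18 and ADAMTS4 were over it on 1 or 2 tissue arrays and in no line. The count was 1 (MMP16) with the title prefix as a covariate, where 6.28% of genes were called, and 3 within prefix 3 only. Leaving out each tissue in turn gave 3 to 7, and the 3 without tissue 1 were ADAM9, MMP13 and MMP16. The dog as a random replicate block gave 5 called members (13.7% of all genes), with MMP3 lost and no other call changed. The count of called members was 5 to 7 under the other alternatives. No called difference reversed its sign under any alternative run. Members called between metastatic and primary lines and for survival numbered 0 under every alternative run. MMP2 and MMP14 above the gap correlated at 0.55 within prefix 2 (permutation p = 0.034), against 0.31 over all such lines. The cause of these shifts was not tested. Prefix 3 holds only 2 line arrays, so prefix and group can hardly be separated, and the 3 metastatic lines bound what their comparison can show.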

Other observations

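MMP2 and MMP13 overlapped in part across primary lines, a pattern chosen after the values were seen and given as counts only. Of the 6 primary lines below the gap in MMP2, 5 had MMP13 over log2 5, which is 5 of the 8 lines with MMP13 over that level, and 15 of 24 lines were in neither set. MMP13 was 9.80 in line 6, 7.99 in line 12, 7.84 in line 23, 9.07 in line 25 and 9.57 in the line of dog 22. Line 4, the low-MMP2 line with endothelial markers, had MMP13 at 2.47. Lines 5, 18 and 20 had MMP13 at 6.00, 8.25 and 9.11 with MMP2 at 12.63, 12.79 and 13.65, and line 20 had the highest MMP2 of the primary lines.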
